A study of Mus musculus with 8 samples.

Results

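The 38 genes described here encode the transcription factor Myc, its DNA-binding partner Max, and 36 proteins that take part in making ribosomes. They were chosen by name: each is a row of the array whose annotation gives exactly 1 of the 38 symbols, and a gene with several such rows was represented by the one with the highest mean of all 8 arrays. All 38 had a row, among 19938 genes measured by rows with a single symbol. They were measured in mouse bone marrow cells, on a C57BL6 background, of animals 7 weeks old. Knockout (KO) animals combined 2 floxed alleles of Cbfb with Vav1-iCre, a Cre recombinase under the promoter of Vav1, a gene active throughout the blood system. Control (Het) animals had this Cre too, with a single floxed allele beside an intact one, so Cre was present behind all 8 arrays and a wild type was not among them. Cbfb encodes the subunit that holds Runx transcription factors on DNA. GMP cells (granulocyte and macrophage progenitors) and LSK cells (the fraction with stem and multipotent cells) were sorted separately; the series' design text gives 2 mice of each genotype, and there were 4 groups of 2 arrays each: KO GMP, Het GMP, KO LSK and Het LSK.

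A ribosome begins with the transcription of ribosomal RNA by RNA polymerase I in the nucleolus. Small nucleolar ribonucleoproteins (snoRNPs) modify and help cut that RNA. Separate sets of assembly factors build the small and the large subunit, which are exported to the cytoplasm. Myc, which binds DNA as a dimer with Max, is known to drive many of these genes in growing cells, and its preferred site is the E-box CACGTG.

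Sequences around such sites are shown first, because CACGTG is the run of letters that the Myc and Max pair is known to bind. RefSeq promoters (assembly GRCm38.p6, 250 bases before to 50 after the gene start) were at hand for 32 of the 38 genes. CACGTG, which reads the same on both strands, stood in 9 of the 32 (28.1%), against 9.5% of the 15614 array genes with a promoter and 8.09% of all 27025 promoter genes. The related letters CACGCG, read on both strands and so also found as CGCGTG, stood in 8 of the 32 (25%), against 14.9% of array genes, and 15 genes held at least 1 of the motifs. The median GC content was 59.5% for the 32 genes and 57.5% for the array genes. A match is a run of letters and not a shown binding site. Each line gives 30 bases read 5′ to 3′ on the gene's strand, with the motif in capitals. The first 5 are from genes whose RNA was higher in Het GMP than in Het LSK, and the others are the remaining CACGTG sites. CACGCG stood also in Ubtf, Utp15, Nip7 and Mybbp1a, which did not pass in that comparison, and in Pes1. Those CACGCG sites are not shown. Whether a motif goes with a higher value was not tested.
Pes1, chr11:3963965-3963994, plus strand: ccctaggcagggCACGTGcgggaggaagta
Ltv1, chr10:13193092-13193121, minus strand: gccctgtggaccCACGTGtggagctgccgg
Nolc1, chr19:46075810-46075839, plus strand: gcaggatgatgaCGCGTGtgggaccggaag
Bysl, chr17:47611604-47611633, minus strand: actccagaccttCACGCGaacggcggcccc
Nop16, chr13:54590029-54590058, minus strand: ggagactattaaCACGCGgctctgagagcg
Max, chr12:76962234-76962263, minus strand: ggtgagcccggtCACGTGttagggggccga
Nop2, chr6:125131811-125131840, plus strand: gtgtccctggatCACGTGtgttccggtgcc
Rrn3, chr16:13780472-13780501, plus strand: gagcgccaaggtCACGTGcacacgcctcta
Rrn3, chr16:13780639-13780668, plus strand: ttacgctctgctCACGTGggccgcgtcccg
Mybbp1a, chr11:72441347-72441376, plus strand: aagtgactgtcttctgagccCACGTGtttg
Tsr1, chr11:74898092-74898121, plus strand: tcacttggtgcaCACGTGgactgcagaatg
Utp20, chr10:88826765-88826794, minus strand: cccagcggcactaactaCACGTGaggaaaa
Wdr43, chr17:71616220-71616249, plus strand: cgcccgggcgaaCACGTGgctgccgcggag

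The motif lay close to the gene start in most of these genes. Counted with the start base included, its first base was base 3 in Pes1 and base 29 in Ltv1 and in Nop16. In Nolc1 it lay 25 bases before the start. In Bysl it lay 129 bases before the start, and Rrn3 alone held a pair of CACGTG sites, 215 and 48 bases before. Pes1 and Mybbp1a held both motifs. Of the genes that were higher in Het GMP, Ebna1bp2 held neither in this window and Rrp12 was not among the promoters used here. Promoters were also not used here for Myc, Npm1, Fbl, Bop1 and Rrs1.

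The values are log2 expression values made by the authors with RMA (robust multi-array average), differences are on the same scale, and an array gives no level that can be set against that of another gene. The targeted gene, Cbfb (transcript cluster 10574632), read 6.48 and 6.96 in KO GMP against 7.53 and 7.65 in Het GMP, and 6.93 and 6.98 in KO LSK against 7.56 and 7.55 in Het LSK. By limma with Benjamini-Hochberg adjustment it fell by 0.86 in GMP (adjusted p = 0.013), while the LSK difference of -0.60 missed the threshold of 0.05 (adjusted p = 0.0557). All 10 GMP marker genes were higher in Het GMP than in Het LSK and 9 of 10 in KO; of 10 LSK marker genes, 9 were lower in Het GMP and 5 in KO GMP. Ly6a, which defines the LSK gate, was not analysed here. Replicates of a group correlated at 0.99 to 0.995 over the 21789 tested rows. Labels name them biological replicates without tying an array to a mouse, so whether a GMP and an LSK array share a mouse is not known, and the fit treats all arrays as separate.

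The deposited scaling matters for small differences. The arrays' medians over the tested rows lay between 4.92 and 5.09, and subtracting them would add 0.087 to each KO minus Het difference in LSK, -0.051 in GMP, 0.155 to each GMP minus LSK difference in Het and 0.018 in KO. Values below are as deposited. The effect of that subtraction is given mainly for the 38 genes as a set. Signs of single small differences, and of medians of other lists, may change with that subtraction.

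Seen across all 4 groups, Het GMP stood out. It had the highest group mean for 29 of the 38 genes (76.3%), against 30.1% of all tested rows, and KO LSK the lowest for 19 of the 38, against 24.8% of rows. The 29 genes ranged between 24 and 32 with any 1 array left out, the lowest count being without Het GMP replicate 1, and became 35 with array medians subtracted (43.2% of rows). These are counts without a test.

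**Figure D1:**
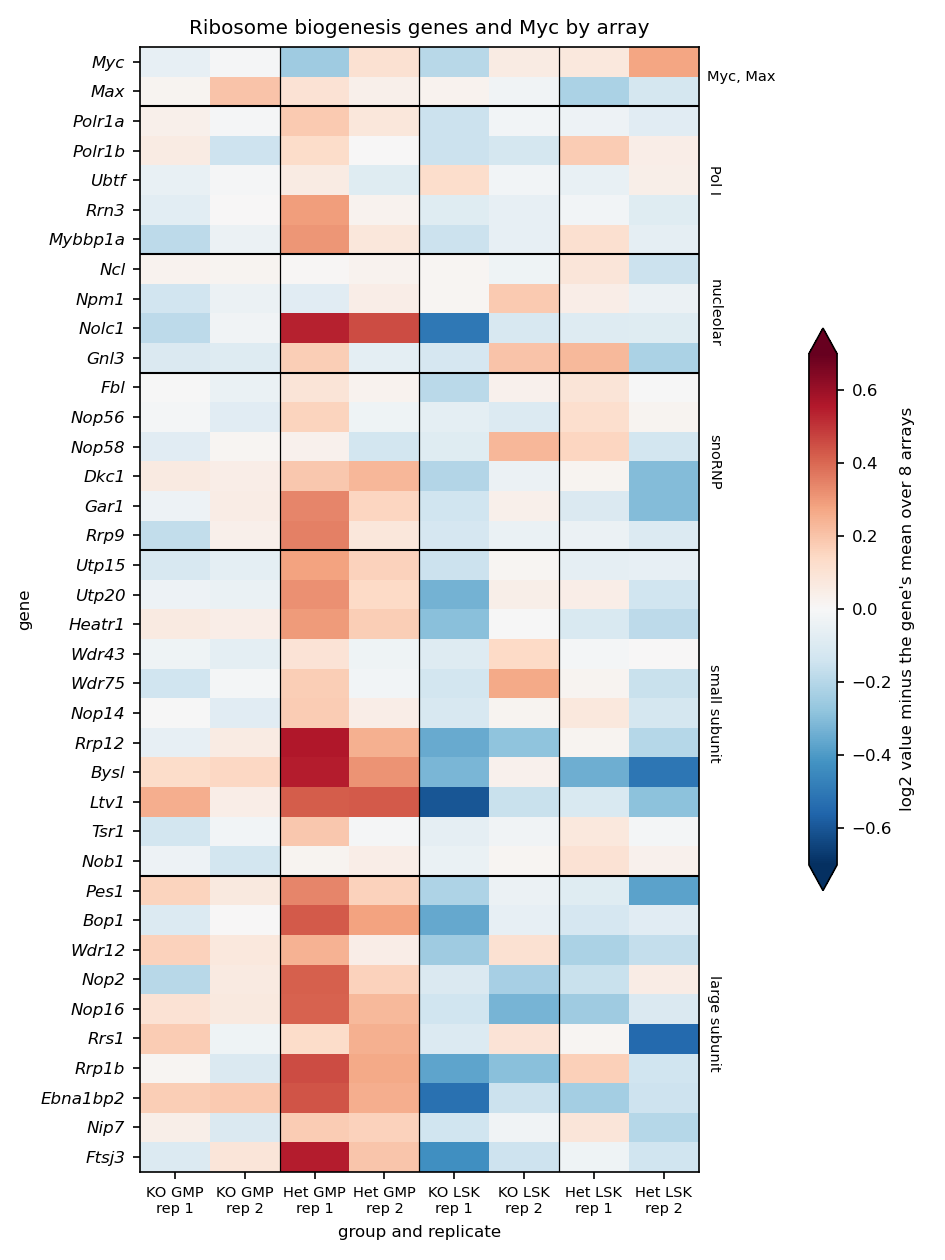
Log2 value of each of the 38 genes (rows, by role) on each array (columns, 2 per group), minus the gene's mean over 8 arrays; red is above and blue below that mean. Het GMP replicate 1 is above the mean for every large and small subunit gene, and KO LSK replicate 1 is below it for every one.

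The arrays of a group did not always read these genes alike. In KO LSK, replicate 1 was lower than replicate 2 for 32 of the 38 genes (median difference -0.17), and in Het GMP replicate 1 was higher for 31 (median 0.15). Het LSK replicate 1 was higher for 27 genes, and in KO GMP the genes split 18 to 20. Over all rows the median difference between replicates was at most 0.007 in each group. Genes of mitosis moved with them in part: in KO LSK all 19 measured were lower on replicate 1 (median -0.87), in KO GMP all 19 were too (median -0.27), in Het LSK 18 were higher on replicate 1 (median 0.18) and in Het GMP 17 (median 0.05). The part of the mitosis genes in the results below was not tested.

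The comparison of GMP with LSK in Het cells asked how the ribosome genes differ between the committed and the multipotent progenitors. Of the 38 genes, 7 were higher in Het GMP and 0 lower (18.4%), against 7.90% of all 21789 tested rows higher and 9.60% lower (17.5% in either direction). In sorted bulk samples, fewer cells of a type and less RNA per cell cannot be told apart. Among the 10894 rows brighter than the median row, which hold all 38 genes, 13.7% were higher. The median difference of the 38 was 0.26, against 0.01 for all rows, and 31 of 38 differences were positive (51.0% of rows). This median was 0.18 without Het LSK replicate 2 (29 positive) and 0.27 without its replicate 1 (36 positive). At an unadjusted p under 0.05, 17 of the 38 were higher (14.2% of rows) and 0 lower (15.0% of rows). In 23 both Het GMP arrays lay above both Het LSK arrays (29.7% of rows), and in 0 below them (28.2% of rows).

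The 7 genes belonged to 3 steps of assembly. Among small subunit factors, Bysl (bystin, a factor of precursor maturation; transcript cluster 10451580) read 7.51 and 7.27 in Het GMP against 6.62 and 6.45 in Het LSK, and rose by 0.85 (SE 0.15, adjusted p = 0.00482). Its groups did not overlap, and it had the largest difference of the 38. Ltv1 (10367931), which works in the assembly and export of the small subunit, read 8.36 and 8.36 in Het GMP against 7.83 and 7.65 in Het LSK, a rise of 0.62 (SE 0.16, adjusted p = 0.0304). Rrp12 (10467653), an export factor, read 6.97 and 6.66 in Het GMP against 6.43 and 6.21 in Het LSK, a rise of 0.49 (SE 0.14, adjusted p = 0.0457). Both Het GMP arrays exceeded both Het LSK arrays for these genes too. That describes the same arrays that gave the calls and adds no further support.

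In the large subunit group, Ebna1bp2 (10507557), an assembly factor, read 9.0 and 8.81 in Het GMP against 8.32 and 8.41 in Het LSK and rose by 0.54 (SE 0.15, adjusted p = 0.0347). For Nop16 (10409338), a nucleolar protein of large subunit assembly, the values were 8.57 and 8.38 in Het GMP against 7.91 and 8.06 in Het LSK, a rise of 0.49 (SE 0.13, adjusted p = 0.0292). Pes1 (10373814), which forms the PeBoW complex with Bop1 and Wdr12, read 8.02 and 7.84 in Het GMP against 7.59 and 7.30 in Het LSK and rose by 0.48 (SE 0.14, adjusted p = 0.0494). All 10 large subunit genes had Het GMP arrays above Het LSK arrays without overlap (29.7% of rows did), with differences between 0.23 and 0.54. The complex partners of Pes1 did not pass: Bop1 differed by 0.45 (adjusted p = 0.0511) and Wdr12 by 0.34 (adjusted p = 0.167).

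The remaining gene was Nolc1 (10463535), a nucleolar phosphoprotein that accompanies snoRNPs. It read 9.06 and 8.98 in Het GMP against 8.43 and 8.44 in Het LSK and rose by 0.59 (SE 0.15, adjusted p = 0.0243). The other abundant nucleolar proteins stayed close: Ncl (nucleolin) differed by 0.05 (95% interval -0.23 to 0.33), Npm1 (nucleophosmin) by -0.02 (-0.30 to 0.26) and Gnl3 (nucleostemin) by 0.05 (-0.36 to 0.45). The intervals here and below are not adjusted for the number of genes.

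**Figure D2:**
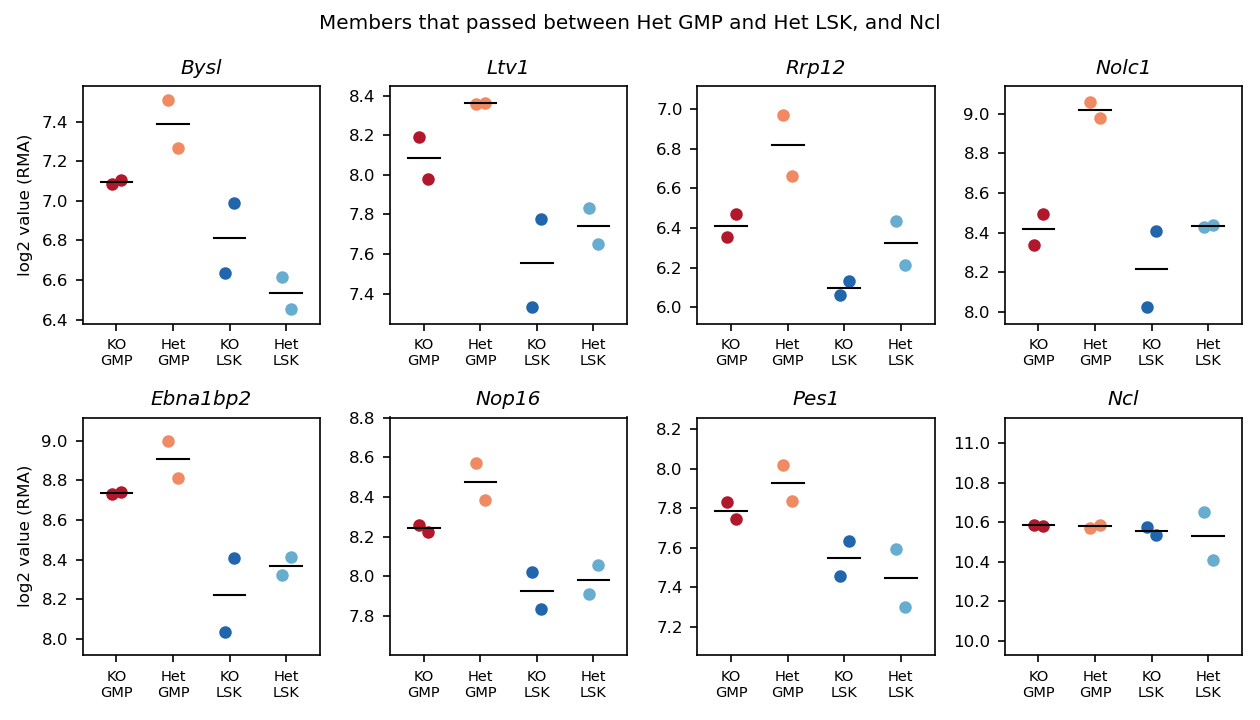
Log2 values (y axis, scaled separately per gene) of the 7 genes that passed between Het GMP and Het LSK, and of Ncl for contrast, in KO GMP, Het GMP, KO LSK and Het LSK; points are the 2 arrays of a group and lines their mean. Both Het GMP arrays lie above both Het LSK arrays for the 7 genes, while Ncl stays between 10.41 and 10.65.

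The snoRNP and polymerase groups held no gene that passed. Among the snoRNP genes, the pseudouridylation partners Gar1 and Dkc1 differed most, by 0.45 (adjusted p = 0.0516) and 0.35 (adjusted p = 0.125), and Rrp9 by 0.28. The methylation core of Nop56 (-0.00), Nop58 (-0.06) and the methyltransferase Fbl (0.01) showed small differences. Fbl and Wdr12 each had a further row: the other Fbl row gave 0.40 (adjusted p = 0.124), and which row reads the gene is uncertain, while the other Wdr12 row gave 0.39 (adjusted p = 0.0644). Of the polymerase I genes, the initiation factor Rrn3 differed by 0.21, the largest subunit Polr1a by 0.19 and the nucleolar regulator Mybbp1a by 0.17, with the smallest adjusted p in this group 0.327. Polr1b and the rDNA-binding factor Ubtf differed by -0.04 and -0.01.

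The count in Het rested on single arrays and on the scaling. Without Het GMP replicate 1 no gene passed (0 of 38; Bysl had adjusted p = 0.0509), without replicate 2 of that group Rrp12 and Bysl did (2), without Het LSK replicate 1 Bysl, Pes1 and Rrs1 (3), without its replicate 2 only Bysl (1), and without either KO GMP array Nolc1, Bysl and Ltv1 (3). With all rows of the table tested, Bysl alone passed (1). With array medians subtracted 16 genes were higher and 0 lower, the median difference was 0.41, and 37 of 38 differences were positive. That subtraction also moved the balance over all rows, from 45.1% of called rows higher in GMP as deposited to 67.1%, with 14.7% of rows called higher. Of 9 mature neutrophil genes 1 was higher in Het GMP. Their list medians were 10.00 and 10.85 in Het GMP against 7.57 and 9.60 in Het LSK. All 9 differences were positive, with a median of 0.94. Of 7 B cell genes 5 were lower, with list medians of 4.28 and 4.40 in Het GMP against 6.93 and 6.79 in Het LSK. Of 19 mitosis genes 1 was higher (Aurka, 0.78, adjusted p = 0.0292, lost without any 1 Het array or with all rows tested), with a list median of 0.33. The part of these cells and of mitosis in the ribosome genes was not tested.

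The same comparison in KO cells gave a smaller median difference. By limma 0 of the 38 genes passed, against 6.05% of rows, 3.66% higher and 2.39% lower. At an unadjusted p under 0.05, 3 were higher (9.42% of rows) and 0 lower (9.80% of rows). Both KO GMP arrays lay above both KO LSK arrays for 12 genes (21.5% of rows) and below them for 1 (26.0% of rows). The median difference was 0.07, against -0.02 for all rows, and 28 of 38 differences were positive (46.1% of rows). It was 0.009 without KO LSK replicate 1 (20 positive and 18 negative) and 0.13 without replicate 2 (34 positive). With array medians subtracted it was 0.08 (29 positive). Ltv1 read 8.19 and 7.98 in KO GMP against 7.33 and 7.78 in KO LSK (0.53, 95% interval 0.16 to 0.90, adjusted p = 0.109), and Ebna1bp2 8.73 and 8.74 in KO GMP against 8.04 and 8.41 in KO LSK (0.51, 0.18 to 0.85, adjusted p = 0.0841). Both groups were separate for these genes. Nop16 differed by 0.32, Rrp12 by 0.31, Bysl by 0.28, Pes1 by 0.24 and Nolc1 by 0.20, with intervals whose upper ends lay between 0.54 and 0.64. Without KO LSK replicate 2, the array with the higher values, Ltv1 and Ebna1bp2 passed (2 of 38). Of the 19 mitosis genes 0 passed in KO, with a median difference of 0.42.

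**Figure D3:**
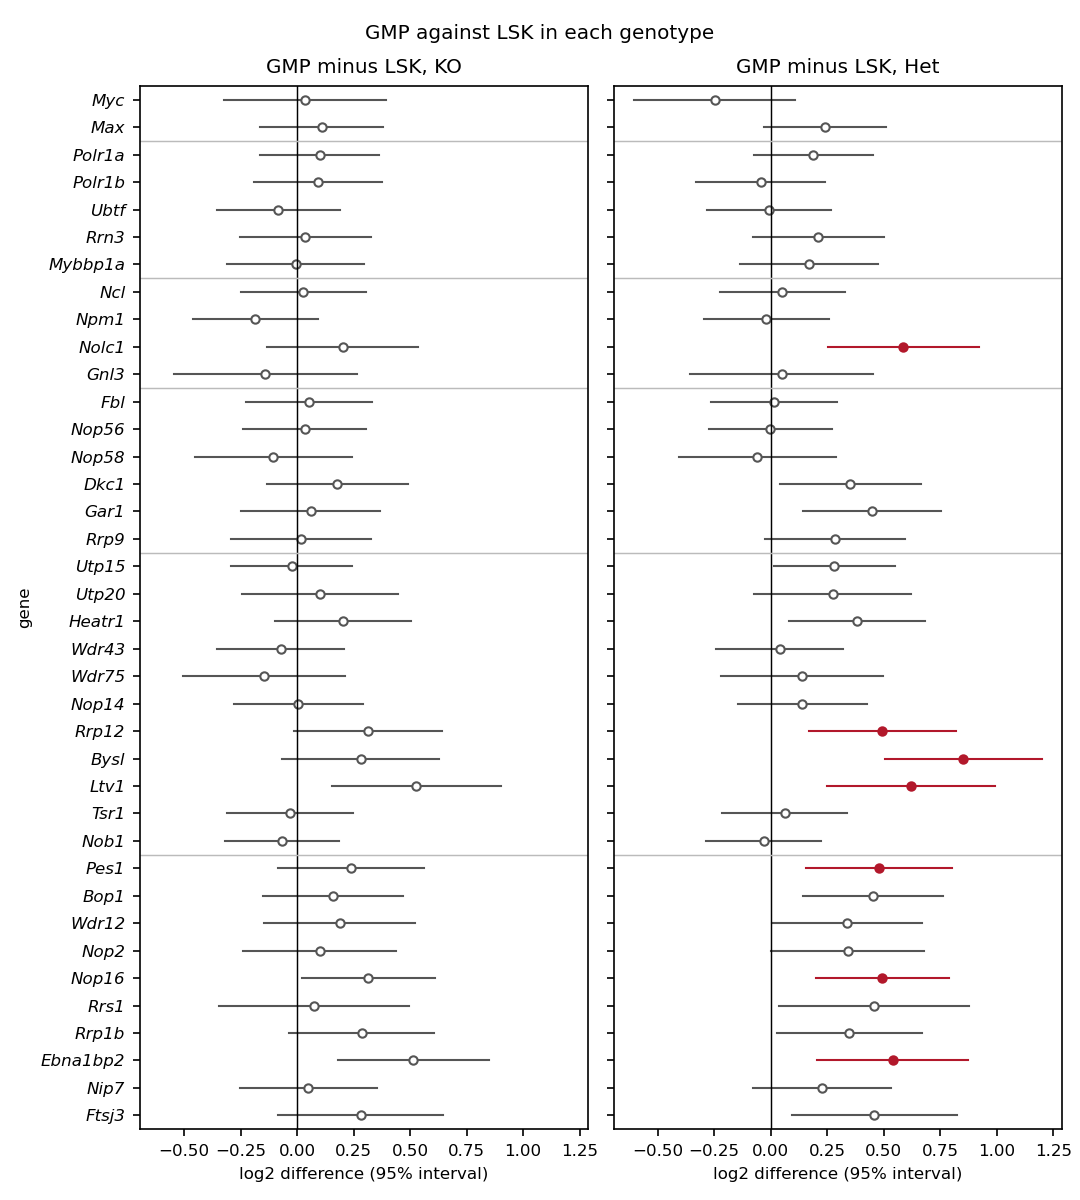
GMP minus LSK difference in log2 value for each of the 38 genes in KO (left) and in Het (right); points are limma estimates, bars unadjusted 95% intervals, and filled red points passed at an adjusted p under 0.05. In Het 7 genes passed, all on the positive side, and in KO 0 passed.

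Whether GMP and LSK differed by another amount in KO than in Het was tested by the interaction, the KO effect in GMP minus that in LSK. By limma 0 of the 38 passed, against 2.29% of rows (1.69% higher and 0.601% lower). At an unadjusted p under 0.05, 0 were higher (7.71% of rows) and 1 lower (5.40% of rows). The median was -0.17 for the 38 genes and -0.02 for all rows. Of the 38 estimates, 34 were negative (37 with array medians subtracted, which moves the median to -0.31), against 53.4% of rows as deposited. The median depended on single arrays: it was -0.07 without Het GMP replicate 1 (29 negative), -0.08 without KO LSK replicate 2 (28 negative) and -0.09 without Het LSK replicate 2 (29 negative), and between -0.13 and -0.22 without any other array. The gene past the unadjusted level was Bysl, at -0.57 (95% interval -1.06 to -0.08, adjusted p = 0.285). Nolc1 had -0.38 (-0.86 to 0.09, adjusted p = 0.502). For Ltv1 (-0.09) and Ebna1bp2 (-0.03) the estimates lay near 0. The 7 calls in Het beside 0 in KO are thus not shown to differ between the genotypes.

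Loss of Cbfb in GMP cells was examined by setting KO GMP against Het GMP. Of the 38 genes, 0 rose and 1 fell (2.63%), against 6.02% of rows, 3.45% higher and 2.57% lower. Among the rows brighter than the median row, 9.48% passed (5.86% higher and 3.63% lower) and 55.2% of differences were negative. Most differences were small and negative: 34 of 38 lay below 0 (53.2% of rows did) with a median of -0.16, against -0.02 for all rows. The median was -0.25 without Het GMP replicate 2. That run kept replicate 1, which read higher than replicate 2 for 31 of the 38 genes. The median without replicate 1 is not given here. Both KO GMP arrays lay below both Het GMP arrays for 27 genes (27.9% of rows) and above them for 0 (23.4% of rows). At an unadjusted p under 0.05, 8 were lower (8.71% of rows) and 0 higher (8.55% of rows). With array medians subtracted all 38 were negative (median -0.21), and 1 gene passed, as before.

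The gene that fell was Nolc1. It read 8.34 and 8.50 in KO GMP against 9.06 and 8.98 in Het GMP, and fell by 0.60 (SE 0.15, adjusted p = 0.0478). The KO GMP values overlapped the Het LSK values of 8.43 and 8.44. The call was narrow: it was lost without any 1 of the Het GMP, KO GMP or Het LSK arrays, with adjusted p between 0.0765 and 0.266, and kept without either KO LSK array. With all rows of the table tested it was lost too (adjusted p = 0.138). This comparison and that of GMP with LSK in Het share the Het GMP arrays, so their values for a gene are not independent.

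The genes next in size were mostly assembly factors. Rrp12 read 6.35 and 6.47 in KO GMP against 6.97 and 6.66 in Het GMP (-0.41, adjusted p = 0.172). Bop1 read 6.65 and 6.75 in KO GMP against 7.17 and 7.02 in Het GMP (-0.40, adjusted p = 0.151), and Rrp1b, a large subunit factor, 7.70 and 7.58 against 8.14 and 7.95 (-0.40, adjusted p = 0.166). The groups were separate for all 3. The methyltransferase genes Ftsj3 (-0.38, adjusted p = 0.266) and Nop2 (-0.36, adjusted p = 0.262) also stood on this side. All 11 small subunit genes were below 0, from -0.41 to -0.08, and all 10 large subunit genes, from -0.40 to -0.03.

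Estimates for the earlier steps were mostly smaller. In the polymerase I group Mybbp1a had -0.31 (adjusted p = 0.286), Rrn3 -0.19 and Polr1a -0.12. In the snoRNP group Rrp9 had -0.28 (adjusted p = 0.344), Gar1 -0.24 and Dkc1 -0.15. Ncl differed by 0.00 (95% interval -0.27 to 0.28). Intervals of all 38 genes stayed within 1 log2 unit of 0, between -0.94 and 0.40, which excludes a change of 1 log2 unit for each gene at this unadjusted level. In the same comparison 4 of 10 LSK markers rose and 1 fell, and 2 of 10 GMP markers fell. Of 9 mature neutrophil genes 1 was higher and 0 lower. Their differences ran from -2.22 to 2.46, 6 negative and 3 positive, with a median of -0.18. The median level of this mixed list was 8.78 and 9.05 in KO GMP against 10.00 and 10.85 in Het GMP, a wider gap than that median difference. Of the 19 mitosis genes 0 passed (median -0.15). The part of these gene sets in the ribosome gene differences was not tested.

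In LSK cells, none of the 38 passed for KO against Het by limma (0 genes), against 7.73% of rows, 3.02% higher and 4.71% lower. At an unadjusted p under 0.05 there were 0 higher and 1 lower (8.77% and 10.8% of rows). Both KO LSK arrays lay above both Het LSK arrays for 2 genes and below them for 9 (22.8% and 22.7% of rows). The median was -0.02, against 0.01 for all rows, with 14 positive and 24 negative differences (51.8% and 48.2% of rows). Among the rows brighter than the median row, 55.9% were negative and 10.6% passed (4.35% higher and 6.28% lower). The direction of the 38 follows the scaling, since 24 were positive and 14 negative with array medians subtracted (median 0.07). It follows single arrays as well: 23 were positive without KO LSK replicate 1, 9 without replicate 2, 19 without Het LSK replicate 1 and 9 without its replicate 2.

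The largest LSK difference was that of Rrp1b, at 7.31 and 7.39 in KO LSK against 7.85 and 7.54 in Het LSK (-0.34, 95% interval -0.66 to -0.02, adjusted p = 0.221). Bysl had the largest positive one, 6.64 and 6.99 in KO LSK against 6.62 and 6.45 in Het LSK (0.28, -0.07 to 0.62, adjusted p = 0.375). The groups were separate for both. In the other roles Polr1b differed by -0.25, Nolc1 by -0.22 and Gar1 by 0.15. Rrs1, at 7.69 and 7.88 in KO LSK against 7.80 and 7.24 in Het LSK (0.27), overlapped, and its upper limit of 0.69 was the highest of the 38. No interval reached 1 log2 unit. Over the same arrays 0 of 19 mitosis genes passed, all with negative differences (median -0.25), and 6 of 7 B cell genes fell, with list medians of 3.92 and 4.40 in KO LSK against 6.93 and 6.79 in Het LSK. Of 10 LSK markers 2 rose and 3 fell. The part of these genes in the ribosome gene values was not tested.

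**Figure D4:**
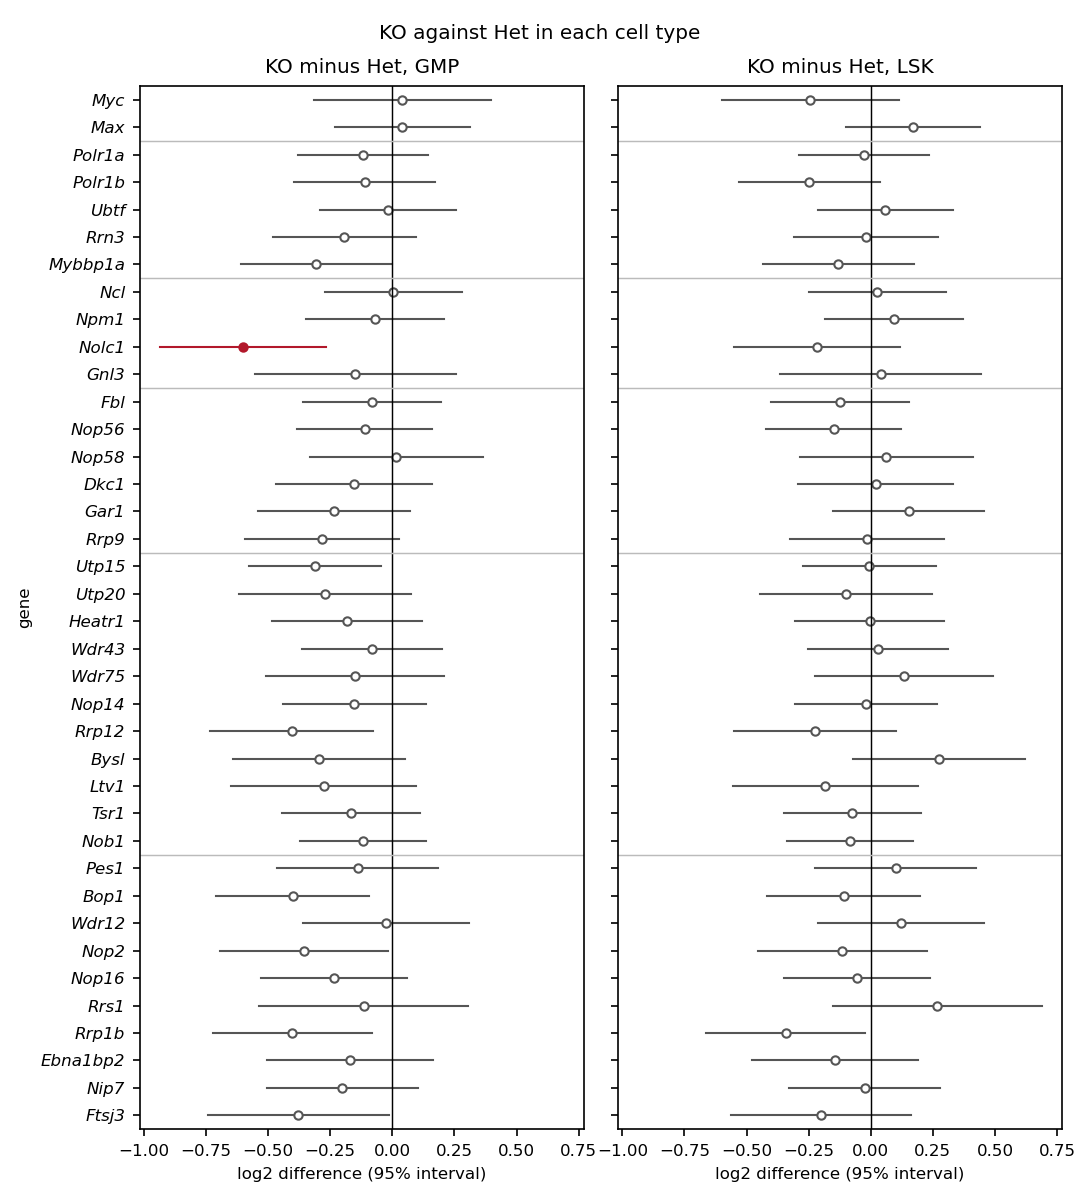
KO minus Het difference in log2 value for each of the 38 genes in GMP (left) and LSK (right); points are limma estimates, bars unadjusted 95% intervals, and the filled red point passed at an adjusted p under 0.05. In GMP 34 of 38 points lie below 0 and Nolc1 passed; in LSK the points lie on both sides and 0 passed.

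Myc itself differed little between the groups. It (transcript cluster 10424400) read 11.07 and 11.13 in KO GMP, 10.88 and 11.24 in Het GMP, 10.94 and 11.19 in KO LSK, and 11.21 and 11.41 in Het LSK. The Het LSK arrays were the highest on average, above both KO LSK and both KO GMP arrays, and overlapped those of Het GMP. KO minus Het was 0.04 in GMP (95% interval -0.32 to 0.40, adjusted p = 0.941) and -0.24 in LSK (-0.60 to 0.11, adjusted p = 0.462). GMP minus LSK was 0.04 in KO (-0.32 to 0.39) and -0.25 in Het (-0.61 to 0.11, adjusted p = 0.355). With array medians subtracted that Het difference of Myc was -0.09 (adjusted p = 0.716), and KO minus Het in LSK was -0.16 (adjusted p = 0.623). All these intervals include 0, so a direction for Myc is not shown. Max (10401128) read 9.67 and 9.85 in KO GMP, 9.76 and 9.69 in Het GMP, 9.68 and 9.63 in KO LSK, and 9.43 and 9.54 in Het LSK. Its largest difference was GMP minus LSK in Het, 0.24 (adjusted p = 0.228), which passed only with array medians subtracted (0.40, adjusted p = 0.0489).

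Some other genes of the Myc network passed where Myc and Max did not. Of 11 measured, 2 rose and 0 fell in KO GMP against Het GMP, against 3.45% of rows higher and 2.57% lower, and 0 passed in LSK. Mycn, a Myc paralog known from stem cells, read 5.43 and 5.73 in KO GMP against 4.38 and 3.38 in Het GMP and rose by 1.69 (SE 0.31, adjusted p = 0.0118). Both Het GMP values lay below the median of the tested rows on their arrays (4.93 and 4.92) and RMA gives no detection call, so the size of a Mycn difference against Het GMP is uncertain. Leaving out replicate 2 of Het GMP (1.19, adjusted p = 0.0526) or of KO GMP (1.54, adjusted p = 0.0979) ended that call, as did testing all rows of the table (adjusted p = 0.0749). In LSK it read 6.93 and 6.48 in KO and 6.20 and 6.60 in Het, a difference of 0.30 (adjusted p = 0.676), and the interaction of 1.39 did not pass (adjusted p = 0.18). Mxd1, which competes with Myc for Max and represses, read 7.03 and 7.39 in KO GMP against 6.43 and 6.60 in Het GMP and rose by 0.69 (SE 0.15, adjusted p = 0.0323). Without either Het LSK array, either Het GMP array or KO GMP replicate 2 that call was lost (adjusted p between 0.0564 and 0.231), and also with all rows tested (0.112). In KO LSK Mxd1 read 7.05 and 6.81 against 6.52 and 6.55 in Het LSK (0.39, adjusted p = 0.2).

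Between GMP and LSK in Het, 2 of the 11 network genes rose and 1 fell, against 7.90% of rows higher and 9.60% lower. Mycn fell by 2.52 (SE 0.31, adjusted p = 0.000582), and this call held with each array left out (adjusted p at most 0.00816). Mlx, the partner of the glucose-sensing Mondo factors, read 7.96 and 7.82 in Het GMP against 6.70 and 6.59 in Het LSK and rose by 1.25 (SE 0.13, adjusted p = 0.000266). Mxi1, a Max-binding repressor, rose by 0.55 (adjusted p = 0.0426), and lost its call without any 1 of the Het LSK, Het GMP or KO GMP arrays (adjusted p between 0.0526 and 0.236) or with all rows tested (0.101). In KO, Mlx was again higher, at 7.52 and 7.30 in KO GMP against 6.49 and 6.34 in KO LSK (1.00, SE 0.13, adjusted p = 0.00265), and Mycn differed by -1.13 (adjusted p = 0.0706).

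**Figure D5:**
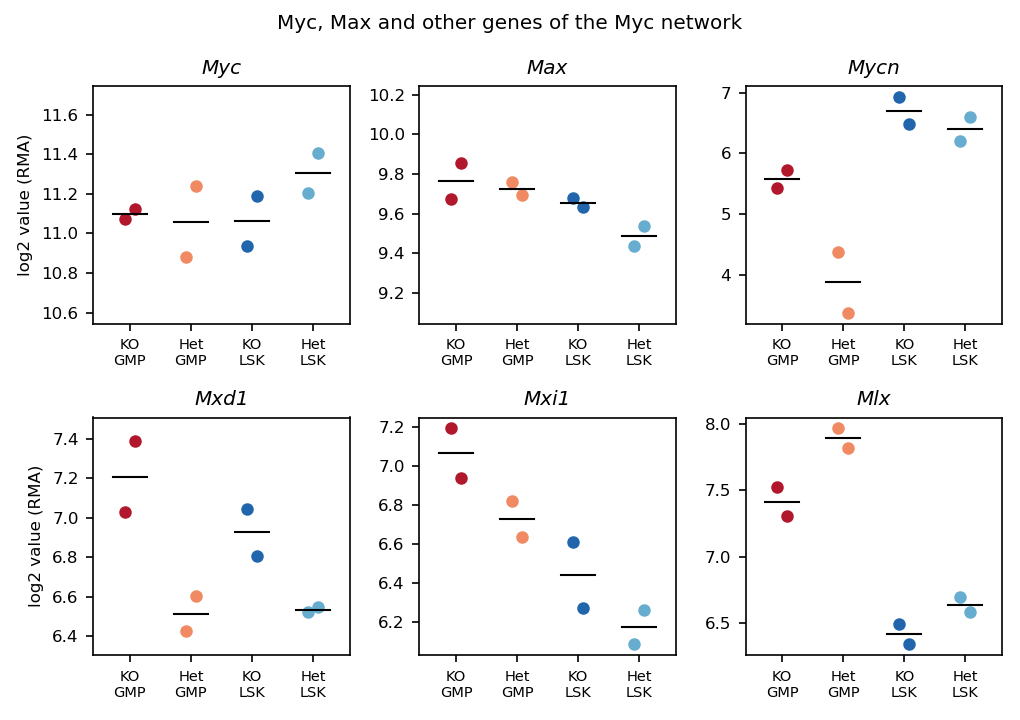
Log2 values (y axis, scaled separately per gene) of Myc, Max, Mycn, Mxd1, Mxi1 and Mlx in KO GMP, Het GMP, KO LSK and Het LSK; points are the 2 arrays of a group and lines their mean. Myc stays between 10.88 and 11.41, while Mycn spans 3.38 to 6.93 with its lowest values in Het GMP.

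A wider list held 98 other measured ribosome biogenesis genes. In Het, 15 were higher in GMP than in LSK and 0 lower (15.3%, median 0.21), against 7.90% of rows higher and 17.5% called in either direction. The list was led by the small subunit factors Mphosph10 (0.85, adjusted p = 0.00414) and Pno1 (0.80, adjusted p = 0.0406) and the nucleolar protein Lyar (0.79, adjusted p = 0.0292). In KO, 1 was higher: Mphosph10 read 8.21 and 8.09 in KO GMP against 7.41 and 7.55 in KO LSK (0.67, adjusted p = 0.0324). KO against Het gave 0 calls in GMP, with 80 of 98 differences negative (median -0.16; 53.2% of rows were negative), and in LSK 1 gene fell. That gene was Taf1a, a subunit of the polymerase I selectivity factor, at 6.44 and 6.41 in KO LSK against 7.03 and 7.06 in Het LSK, which fell by 0.62 (SE 0.14, adjusted p = 0.0265). With single arrays left out, Mphosph10 kept its call in Het each time. Pno1 and Lyar lost theirs without any 1 Het array (adjusted p between 0.0573 and 0.255), and Pno1 also without either KO GMP array (0.0624). Taf1a lost its call without any 1 LSK array (adjusted p between 0.0639 and 0.129). Mphosph10 in KO lost its call without KO LSK replicate 1 (0.112), either KO GMP array (0.184 and 0.116) or either Het GMP array (0.0569). With all rows tested, Pno1 (0.113), Lyar (0.0889), Taf1a (0.0761) and Mphosph10 in KO (0.102) missed the threshold.

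Ribosomal protein genes were bright and had median differences near 0. Their list medians reached 12.17 on arrays whose highest values were 13.58 to 13.67, and whether differences so near the top of the scale are compressed was not tested. Of the 54 measured, 0 passed by limma in each of the 5 contrasts, and 0 had an unadjusted p under 0.05. The list named 77 genes, of which these 54 were measured. Their median differences were 0.04 for KO against Het in GMP, 0.03 in LSK, and -0.04 for GMP against LSK in each genotype. KO minus Het was positive for 43 of the 54 in GMP (46.8% of rows) and 37 in LSK (51.8% of rows). GMP minus LSK was negative for 41 in Het (49.0% of rows) and 42 in KO (53.9% of rows). Signs of differences this small may change with array medians subtracted. Described Myc targets outside the ribosome (32 measured) had 5 higher and 0 lower in Het GMP against Het LSK (15.6%, against 7.90% of rows higher and 17.5% called in either direction), among them the pentose phosphate enzyme Tkt (0.89, adjusted p = 0.0013), the transferrin receptor Tfrc (0.83, adjusted p = 0.0347) and the CTP synthase Ctps1 (0.71, adjusted p = 0.0102). In KO 2 were higher, Tfrc (1.06, adjusted p = 0.0269) and Tkt (0.80, adjusted p = 0.00665). Tkt in Het kept its call with each array left out. Without either KO GMP array, Tkt (0.0521 and 0.0532) and Tfrc (0.13 and 0.129) missed the threshold in KO, and Tfrc in KO also without KO LSK replicate 1 (0.112). In Het, Tfrc missed it without Het LSK replicate 2 (0.23), either Het GMP array (0.227 and 0.0548) or either KO GMP array (0.0547), and Ctps1 without Het LSK replicate 2 (0.0808) or Het GMP replicate 1 (0.0792). With all rows tested Tfrc missed it in KO (0.109) and in Het (0.102). KO against Het gave 0 calls for them in either cell type; in GMP 31 of 32 differences were negative (53.2% of rows), with a median of -0.24, and in LSK 23 of 32 (48.2% of rows), with a median of -0.13.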

How the data were processed

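Each array (Affymetrix Mouse Gene 1.0 ST) gives a value per transcript cluster, deposited by the authors on the log2 scale after RMA, per the submitters' processing notes. RMA corrects background, equalises the arrays' distributions and summarises probes, so a shift of all transcripts together cannot be seen; it gives no detection call, and amplification before labelling may alter differences. The sources used here do not give the software version or genome build. Of 35556 rows, 21789 carried exactly 1 gene symbol in the platform annotation and were tested, 1621 carried several and 12146 none. All 38 genes matched a mouse reference by Entrez number with the same symbol.

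Differences were fitted with limma 3.58.1 (R 4.3.3), 1 mean per group over all 8 arrays (4 residual and 4.83 prior degrees of freedom), two-sided, adjusted by Benjamini-Hochberg over all 21789 rows of each of 5 contrasts, with a threshold of 0.05. SE and 95% intervals are limma's. The fit was checked on simulated data. With 2 against 2 arrays an exact permutation test cannot go below p = 0.333, so none was used. The members, gene lists and tests were chosen with earlier results of these data known. Genes were named by rule: every member that passed, Myc and Max, up to 3 members per role where none passed (more are given where they complete a role), and up to 3 called genes per direction of each other list. Motifs were searched in RefSeq promoters (GRCm38.p6).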

Additional observations from a re-analysis of the deposited data

How the results depend on the processing

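The number of arrays limits the precision, and most calls lay near the threshold. For GMP against LSK in Het, the 7 calls became 16 with array medians subtracted, 11 with only rows brighter than the median row, and 1 with all rows of the table tested, and ranged between 0 and 10 with 1 array left out. For GMP against LSK in KO, the 0 calls became 1 (Ebna1bp2) with the brighter rows and 1 with an intensity trend and robust prior, and ranged between 0 and 2 with 1 array left out. For KO against Het in GMP, the 1 call became 0 with all rows tested and ranged between 0 and 1 with 1 array left out. For KO against Het in LSK and for the interaction, each alternative run gave 0. No call changed sign under any alternative. The labels share replicate numbers without saying that a number marks a mouse, and the deviations of same-numbered LSK and GMP arrays correlated at 0.179 in KO and 0.133 in Het. With the number as a replicate block, 0 genes passed for KO against Het in GMP (Nolc1 adjusted p = 0.0551) and 5 for GMP against LSK in Het, where Rrp12 (0.0578) and Pes1 (0.0599) missed the threshold, as did Pno1 (0.0568) outside the 38. With genotype and number as a block of 1 mouse, 10 genes passed in Het and 0 in KO when GMP was set against LSK.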
